A study of Mus musculus with 16 samples.

Results

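The genes described here are 9 Toll-like receptor genes (Tlr1, Tlr2, Tlr3, Tlr4, Tlr6, Tlr7, Tlr8, Tlr9 and Tlr13) and Cd14, in spinal cord RNA of mice with a chronic spinal cord injury (SCI). They were chosen by gene symbol, which gave 10 of the 24411 symbols in the deposited tables, and all 10 passed the filter on low values, a mean TPM (a transcript level that is scaled for transcript length and for the library total) above 1 in at least 1 of the 3 conditions. Total RNA was sequenced from 16 female C57BL/6J mice, of which 7 formed the SCI + Atorvastatin group and 7 others the SCI + Vehicle group, with 2 mice as Uninjured Control. SCI mice had a laminectomy and a lateral compression of the cord to 0.25 mm at the lower thoracic level at 12 wk of age. From 2 wk post-injury they received daily atorvastatin, an inhibitor of cholesterol synthesis, at 10 mg/kg for 4 wk, or the vehicle alone (61% saline with 35% PEG 400, 2% DMSO and 2% Tween 80), and a section of 5 mm around the lesion was taken at 6 wk post-injury after perfusion with saline. Uninjured Control mice received neither injury nor treatment and were perfused in the same way. The labels give 12 wk as their age, the study's methods a somewhat older one, and by both they were younger than the SCI mice at isolation, so injury, operation, injections and age cannot be told apart in any comparison with them.

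Toll-like receptors are the membrane proteins with which microglia, macrophages and other innate immune cells detect molecules of microbes and of damaged cells. Tlr1, Tlr2, Tlr4 and Tlr6 act at the cell surface, where Tlr2 pairs with Tlr1 or Tlr6 to bind lipopeptides and Tlr4 binds lipopolysaccharide with the help of Cd14. Tlr3, Tlr7, Tlr8, Tlr9 and Tlr13 act in endosomes and bind nucleic acids. Most signal through the adaptor Myd88 and Tlr3 through Ticam1, and both routes lead to NF-kB and interferon regulatory factors and to inflammatory cytokines. In injured spinal cord, activated microglia and blood-derived macrophages are known for expressing these receptors.

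Total counts on genes ranged from 14823292 to 25579826 per mouse, with 20211276 and 22368736 in the Uninjured Control mice. Those control libraries stood apart from the others. Among the 6412 genes whose mean count in SCI mice lay within the range of the 10 genes (46.3 to 535 counts), a count of 0 was found for 30.3% in Uninjured Control replicate 1 and for 33.9% in replicate 2. For 17.7% it was 0 in both and for 28.8% in only 1 of them. The 7 liver markers summed to 1165 and 6362 TPM in these libraries, whereas no SCI mouse exceeded 13.4 TPM. The tissue label held, in that no neuron, oligodendrocyte or astrocyte marker was at 0 throughout any group, and 6 of 7 neuron markers were called lower in each SCI group than in uninjured cord. A gene at 0 can still be present at up to 3 counts in a library, which is 0.117 to 0.202 CPM here (counts scaled to the library total), a limit that covers counting error only, since copies of a molecule made by PCR cannot be told from separate molecules here. Differences given below as at least a given fold refer to this limit in the control libraries and are no bound for the tissue. Tlr3, for example, had 0 counts in replicate 1 and 184 in replicate 2. The part of these features of the control libraries in the results was not tested.

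All 10 genes had counts in the SCI mice, and most had none in the uninjured cord. Of the 140 values in SCI mice, 1 was 0 and the others lay between 21 and 786 counts. Tlr2, Tlr4, Tlr6, Tlr7, Tlr8, Tlr9 and Cd14, 7 of the 10 genes, were at 0 in both uninjured mice. Of the remaining genes, Tlr1 and Tlr3 had counts only in replicate 2 (101 and 184) and Tlr13 only in replicate 1 (46). In TPM the 10 genes summed to 115 ± 10.96 (SD, n = 7) in SCI + Atorvastatin, 100.3 ± 16.1 (n = 7) in SCI + Vehicle, and 1.35 and 8.28 in the Uninjured Control mice.

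**Figure D1:**
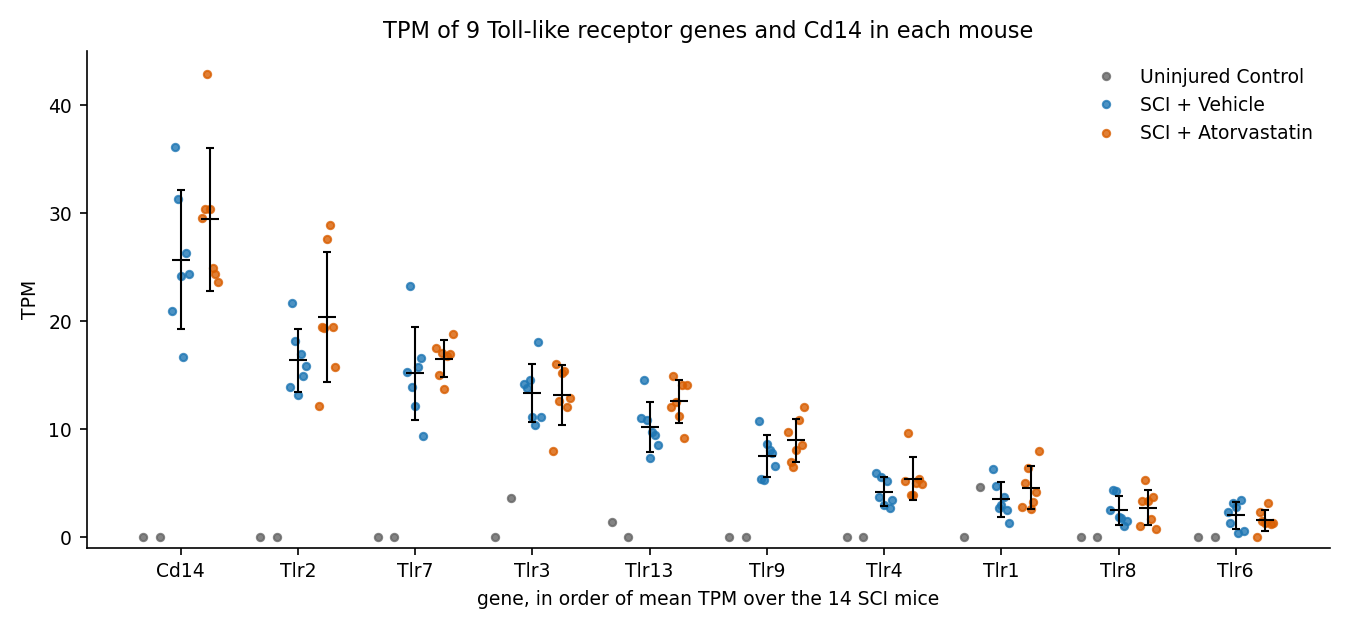
TPM of each gene (x axis, in order of the mean over SCI mice) in each mouse (points, coloured by group), with the mean and SD of the 7 mice of each SCI group in black. Cd14 reached 16.7 to 42.9 TPM in SCI mice, Tlr6 0 to 3.45 TPM, and 17 of the 20 values in Uninjured Control mice are 0.

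Per transcript length the co-receptor was the most abundant of the group. Mean TPM in SCI + Vehicle and SCI + Atorvastatin was 25.7 ± 6.44 and 29.4 ± 6.62 for Cd14 (SD, n = 7 in each here and below), 16.4 ± 2.89 and 20.4 ± 6.01 for Tlr2, 15.2 ± 4.32 and 16.5 ± 1.69 for Tlr7, 13.3 ± 2.70 and 13.1 ± 2.76 for Tlr3, and 10.2 ± 2.28 and 12.6 ± 2.00 for Tlr13. It was 7.50 ± 1.93 and 8.95 ± 2.01 for Tlr9, 4.21 ± 1.33 and 5.41 ± 1.96 for Tlr4, 3.48 ± 1.65 and 4.58 ± 2.00 for Tlr1, 2.46 ± 1.35 and 2.73 ± 1.65 for Tlr8, and 2.00 ± 1.25 and 1.54 ± 0.995 for Tlr6. The steps from Cd14 to Tlr2, from Tlr13 to Tlr9 and from Tlr9 to Tlr4 held in 12, 13 and 12 of the 14 SCI mice, and those from Tlr3 to Tlr13 and from Tlr1 to Tlr8 in 11. Tlr2 and Tlr7, Tlr7 and Tlr3, and Tlr4 and Tlr1 kept their order in only 9 mice each, and Tlr8 and Tlr6 in 10, so the ranges of these neighbours overlapped. TPM and counts were not in a fixed ratio for the least abundant receptors, since TPM per CPM varied 3.57-fold among SCI mice for Tlr8 and 3.24-fold for Tlr6 against 1.19-fold for Tlr9 and a median of 1.39-fold over 13715 genes.

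SCI + Vehicle vs. Uninjured Control and SCI + Atorvastatin vs. Uninjured Control ask how the chronically injured cord differs from uninjured cord under each treatment, and both use the same 2 control mice. A call required a log2 fold change beyond 0.322 in size (more than 25%) and a Benjamini-Hochberg adjusted p below 0.05 over 16091 genes in edgeR's quasi-likelihood test. In each comparison 8 of the 10 genes were called higher and none lower, the exceptions being Tlr1 and Tlr3. All 8 called genes passed the filter only through the SCI groups, so their calls are in part fixed by it. They are the 7 genes at 0 in both controls and Tlr13, which had 1.35 and 0 TPM there. Of all genes tested, 19.8% were called higher and 9.55% lower with vehicle, and 24.9% higher with atorvastatin. With genes at 0 in both controls set to their lower bound, the median log2 fold change of the 10 genes was 5.11 with vehicle and 5.50 with atorvastatin, against 0.16 and 0.19 over all genes tested. The filter fixes this contrast in part as well, since 7 of the 10 genes but 15.1% of all genes tested were at 0 in both controls. Without Uninjured Control replicate 1, 9 genes were called in each comparison, and without replicate 2 all 10. With a separate weight for the spread of each group in limma's voom, none was called, and over all genes 0.827% and 0.907% were. In bulk tissue, fewer cells of a type and less RNA per cell cannot be told apart.

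Among the surface receptors, Tlr2, which recognises bacterial lipoproteins, had the widest gap to the controls. It measured 14.6, 17.0 and 22.6 CPM (lowest, median and highest, normalised by TMM) in SCI + Vehicle and 13.1, 20.4 and 30.6 CPM in SCI + Atorvastatin, and 0 in both controls. No SCI mouse fell near the control limit of 0.151 CPM. Relative to that limit, Tlr2 was at least 117-fold (vehicle) and at least 141-fold (atorvastatin) higher. It was called against uninjured cord in both comparisons (edgeR adjusted p = 2.53e-05 and 1.94e-05). Tlr2 lies on chr3:83836272-83841767 of GRCm38, minus strand, with its whole coding sequence in 1 exon.

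Tlr4, the lipopolysaccharide receptor, was expressed at a lower level. Its lowest, median and highest values were 5.28, 8.50 and 12.4 CPM with vehicle and 8.16, 9.34 and 15.8 CPM with atorvastatin, and both controls were at 0. Its level was at least 53.2-fold (vehicle) and at least 69.5-fold (atorvastatin) higher (edgeR adjusted p = 1.60e-04 and 3.46e-05). All SCI mice lay above the control limit, and SCI + Atorvastatin replicate 2 was the highest. Tlr4 lies on chr4:66827584-66930284, plus strand, with its coding sequence in 3 exons.

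Cd14, the anchored protein that hands lipopolysaccharide to Tlr4 and Ly96, was also higher in all SCI mice. Its values were 9.20, 14.3 and 18.5 CPM with vehicle and 12.9, 16.7 and 24.1 CPM with atorvastatin, against 0 in both controls. That is at least 94.96-fold and at least 111-fold higher (edgeR adjusted p = 5.11e-05 and 1.52e-05). SCI + Atorvastatin replicate 3 stood above all other mice at 486 counts. Of its partners, Ly96, which forms the binding unit with Tlr4, was not called (log2 fold change 1.77 with vehicle, edgeR adjusted p = 0.426), and Lbp, the plasma protein that carries lipopolysaccharide to Cd14, was not either (1.60, adjusted p = 0.359). Lbp is also a liver product, and its counts in the controls were 265 and 0.

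Tlr1 and Tlr6 are the partners of Tlr2 and lie side by side in the genome with long stretches in common. Tlr1 (chr5:64924679-64933563) and Tlr6 (chr5:64952031-64960097) lie 18467 bases apart on the minus strand, and their coding sequences, 2385 and 2418 bases in 1 exon each, are 73.1% identical in a global alignment. The longest identical run is 229 bases, at chr5:64925537-64925765 in Tlr1 and chr5:64953828-64954056 in Tlr6, and 11.2% of all windows of 100 bases in Tlr6 coding sequence also occur in Tlr1. It is shown because read pairs that lie wholly within it cannot be assigned to either gene by sequence, which can make both counts uncertain. The size of that effect was not tested. Capitals mark the identical run and lower case the 20 flanking bases of Tlr1 on each side:
Tlr1: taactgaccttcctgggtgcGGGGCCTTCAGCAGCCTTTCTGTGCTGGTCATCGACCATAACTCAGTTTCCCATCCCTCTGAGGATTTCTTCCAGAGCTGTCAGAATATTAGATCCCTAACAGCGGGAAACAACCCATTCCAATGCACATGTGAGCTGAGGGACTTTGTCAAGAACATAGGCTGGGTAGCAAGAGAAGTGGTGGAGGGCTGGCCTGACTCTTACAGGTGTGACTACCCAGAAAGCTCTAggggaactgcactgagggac
The 5 other pairs compared (Tlr7 with Tlr8 and Tlr9, Tlr8 with Tlr9, and Tlr2 with Tlr1 and Tlr6) shared no identical run of more than 15 bases.

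Tlr1 had the smallest estimated difference from uninjured cord of the 10 genes. Its counts in SCI + Vehicle replicates 1 to 7 were 158, 104, 84, 54, 81, 69 and 30, and in SCI + Atorvastatin replicates 60, 108, 134, 70, 117, 113 and 216, while the controls had 0 and 101. In CPM, the second control (4.58) lay inside the SCI range of 1.32 to 8.79, so the groups overlapped. On the log2 scale Tlr1 differed by 0.69 ± 1.24 (SE) with vehicle and 1.16 ± 1.22 with atorvastatin (edgeR adjusted p = 0.722 and 0.490). It was -0.31 with vehicle when Uninjured Control replicate 1 was left out and 9.35 when replicate 2 was, so its direction rests on which control is used.

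Tlr6 had the lowest counts of the 10 genes. SCI + Vehicle replicates had 65, 29, 62, 46, 23, 95 and 21 counts and SCI + Atorvastatin replicates 0, 86, 29, 25, 91, 42 and 34. A count of 0 in SCI + Atorvastatin replicate 1 put that mouse level with both controls. Expression was at least 14.8-fold (vehicle) and at least 12.6-fold (atorvastatin) higher (edgeR adjusted p = 0.00338 and 0.0245). With limma on log2(TPM + 1) neither was called (adjusted p = 0.0562 and 0.0565).

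Among the endosomal receptors, Tlr7, which binds single-stranded RNA, had the largest lower bound of the group. It measured 13.3, 22.9 and 31.3 CPM (lowest, median and highest) with vehicle and 20.9, 23.6 and 26.2 CPM with atorvastatin, and 0 in both controls. It was at least 145-fold and at least 158-fold higher (edgeR adjusted p = 3.58e-05 and 3.10e-06). Spread among mice was 26.5% of the mean with vehicle and 7.83% with atorvastatin, and that difference in spread was not tested. Tlr7 lies on chrX:167304929-167330558, minus strand, with 2 coding exons.

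Tlr8, the neighbour of Tlr7 on the X chromosome (40599 bases apart, 53.6% identical coding sequence), was found at a lower level. Its values were 1.47, 3.65 and 4.97 CPM with vehicle and 1.91, 4.74 and 7.50 CPM with atorvastatin, with both controls at 0. This was at least 22.3-fold and at least 29.6-fold higher (edgeR adjusted p = 0.00160 and 2.82e-04). Every SCI mouse had at least 28 counts. Tlr8 lies on chrX:167242696-167264329, also on the minus strand.

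Tlr9, the receptor for unmethylated CpG DNA, measured 6.78, 10.0 and 13.8 CPM with vehicle and 7.90, 10.4 and 14.1 CPM with atorvastatin, with 0 in both controls. It was at least 64.0-fold and at least 72.7-fold higher (edgeR adjusted p = 1.14e-04 and 2.80e-05). The ranges of both SCI groups nearly coincided and lay wholly above the controls. Tlr9 lies on chr9:106222598-106226883, plus strand, with 2 coding exons.

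Tlr13, which detects bacterial ribosomal RNA in mice, had 46 counts in the first Uninjured Control mouse and 0 in the second. Its values were 9.96, 14.8 and 19.8 CPM with vehicle and 14.6, 18.8 and 22.2 CPM with atorvastatin, all above the higher control at 2.31 CPM. Tlr13 lies on chrX:106143204-106160493, plus strand, with 2 coding exons. Its log2 change from uninjured cord was 3.69 ± 1.16 (SE) with vehicle and 4.05 ± 1.11 with atorvastatin (edgeR adjusted p = 0.0355 and 0.0152). The call with vehicle was lost on leaving out any of the 7 vehicle mice (adjusted p from 0.0527 to 0.0669).

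Tlr3, the receptor for double-stranded RNA, was abundant in SCI mice but not called. It measured 17.0, 23.0 and 29.2 CPM with vehicle and 16.2, 22.7 and 28.7 CPM with atorvastatin, while the controls measured 0 and 8.35 CPM. Both controls lay below every SCI mouse. The log2 fold change was 2.47 ± 1.13 (SE) and 2.51 ± 1.14 (edgeR adjusted p = 0.125 and 0.109). DESeq2 called it in both comparisons (adjusted p = 0.0337 and 0.0316), and so did edgeR without either control. An antisense gene, Gm45542, overlaps Tlr3 at chr8:45395665-45411080, and whether the counting used strand is not given in the sources used here.

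Across the group, both Uninjured Control mice lay below all 14 SCI mice in CPM for 8 of the 10 genes, the exceptions being Tlr1 and Tlr6. That pattern was found in 22.8% of all genes tested. Of those 8 genes, all but Tlr3 passed the filter only through the SCI groups, so the pattern is in part fixed by it. A count of 0 in both controls, as 7 of the 10 genes had, was found in 15.1% of all genes tested.

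Myeloid and microglia markers were higher in SCI mice than in the controls, while markers of other immune cells were mixed. Summed CPM of 8 myeloid markers (Aif1, Itgam, Ptprc, Cd68, Fcer1g, Tyrobp, Laptm5 and Spi1) was 433 to 682 in SCI + Vehicle, 536 to 841 in SCI + Atorvastatin, and 28.6 and 94.9 in the Uninjured Control mice. Of these 8, 6 were called higher with vehicle and 7 with atorvastatin, and Spi1 was at 0 in both controls. The shares called higher over all genes tested were 19.8% and 24.9%. Microglia markers, 8 genes with P2ry12 and Tmem119 among them, summed to 477 to 593, 540 to 676, and 104 and 172 CPM, with none at 0 in both controls and 4 of 8 called higher in each comparison. Of 6 blood monocyte and border macrophage markers, 2 were called higher with vehicle (Ccr2 and F13a1) and 3 with atorvastatin (Ly6c2 in addition), all 3 at 0 in both controls. Mrc1, Lyve1 and Cd163 had counts in at least 1 control and were not called, with Lyve1 at -0.68 on the log2 scale with vehicle, and the list summed to 17.2 to 96.6 CPM in SCI mice against 11.8 and 16.4. All 6 B and T cell markers were at 0 in both controls and summed to 0.136 to 15.9 CPM in SCI mice. Of the 3 tested (Cd3e, Cd3g and Cd79a), none was called with vehicle, all 3 were called higher with atorvastatin, and none between treatments. Of 5 dendritic cell markers, Xcr1 and Cd209a were at 0 in both controls, none of the 3 tested was called, and the sums were 32.0 to 50.2 CPM in SCI mice against 23.6 and 38.6. Neutrophil markers, 6 genes in the tables with Elane and Camp at 0 in both controls, had 1 called higher with vehicle and 2 with atorvastatin and summed to 20.3 to 178 CPM in SCI mice, a range that held both controls (24.2 and 75.1). Endothelium markers also overlapped, at 130 to 265 CPM against 208 and 239. Some called immune markers had a mean below 1 TPM in the controls and passed the filter only through the SCI groups. Their calls are in part fixed by it. They were Spi1, Ptprc, Cd68, P2ry12, Ccr2, F13a1, Ly6c2, Camp, Elane, Cd79a, Cd3e and Cd3g.

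Relative to the myeloid markers of the same mouse, part of the group was still lower in the controls. With a count of 0 taken as 3 counts, both controls lay below all SCI mice for Tlr2, Tlr4, Tlr7, Tlr9 and Cd14, 5 of the 10 genes, and 2.02% of all genes tested did so. All 5 were at 0 in both controls and passed the filter only through the SCI groups. Their control ratios are the limit of 3 counts alone, so this contrast is in part fixed by the filter. Tlr7 made up 3.01% to 4.68% of the myeloid sum in SCI mice and at most 0.143% and 0.528% in the controls. Cd14 made up 1.74% to 3.30% in SCI mice, with the same limits in the controls. Tlr8 overlapped, at 0.215% to 0.892% against up to 0.528%. Tlr1, Tlr3 and Tlr13 were higher relative to the markers in the control mouse that had counts (4.83%, 8.80% and 8.10%) than in any SCI mouse. Relative to the summed microglia markers, both controls lay below all SCI mice for 6 of the 10 genes, Tlr8 in addition, and for 5.97% of all genes tested. Those 6 were likewise all at 0 in both controls, and the same limit applies. These ratios were chosen after the data were seen, whereas on the planned scale of log2(CPM + 1) minus the mean of the markers, where the added 1 limits how low a gene can read, the controls were below all SCI mice for none of the 10 genes and above all of them for 3. The part of cell composition in these differences was not tested.

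**Figure D2:**
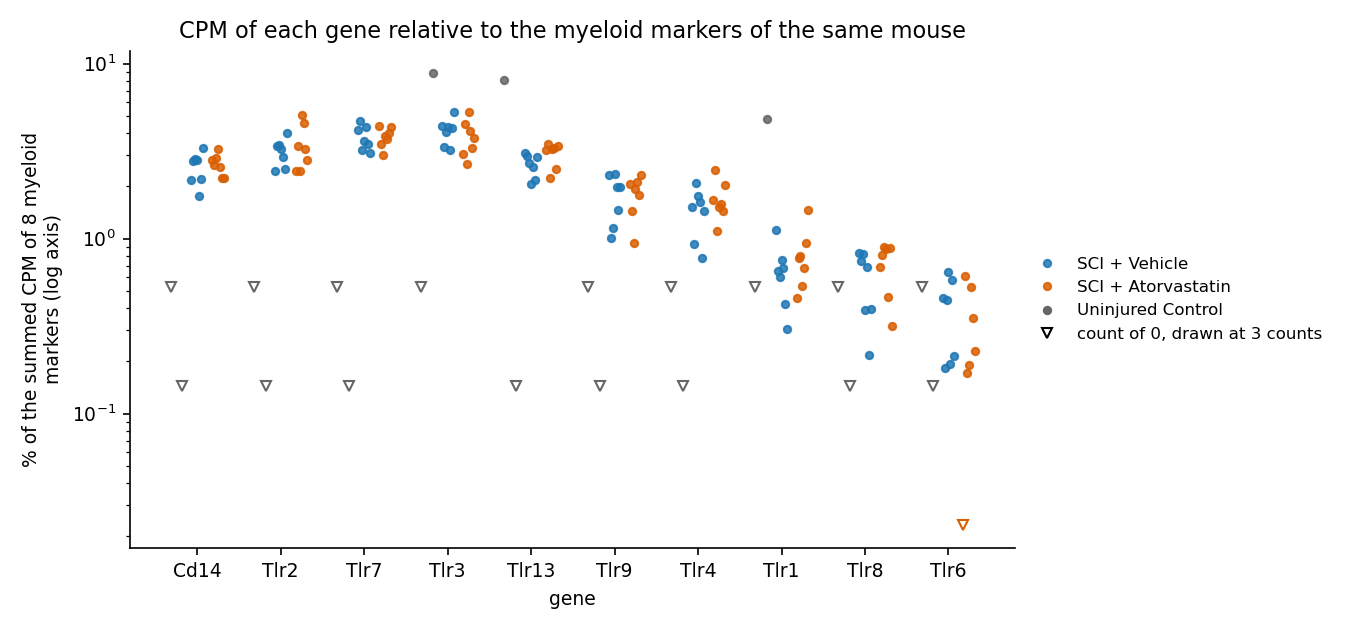
CPM of each gene as a percentage of the summed CPM of 8 myeloid markers in the same mouse, on a log axis, by group; open triangles are counts of 0 drawn at 3 counts. For Tlr2, Tlr4, Tlr7, Tlr9 and Cd14 both control limits (0.143% and 0.528%) lie below all 14 SCI mice. These genes were at 0 in both controls and passed the filter only through the SCI groups.

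The upstream sequence of the genes was searched because most of them differed together from the controls. RefSeq promoter windows of GRCm38.p6 matched 7 of the 10 genes in 9 windows, and the 250 bases before each start were scanned on both strands for 5 motifs. The core GAGGAAG of PU.1, the myeloid factor encoded by Spi1, was found before Tlr1, Tlr9 and Tlr13, and in 10.6% of all 32851 windows. The motif of NF-kB (GGG, any 2 bases, TTTCC) was found in the window of Tlr3 and in 1.41% of all windows. The interferon-stimulated response element (GAAA, any 2 bases, GAAA) was found in a window of Tlr6, as 2 overlapping matches, and in 2.98%. By the GENCODE positions these Tlr3 and Tlr6 windows (chr8:45410381-45410630 and chr5:64959167-64959416) lie within their genes, with 178 and 0 exonic bases. The AP-1 motif TGANTCA was found before Tlr9 and in 6.75%. The TATA box TATAAA was found before Tlr6 and Tlr8 and in 12.4%. The windows with a PU.1 core are shown because Spi1 itself was at 0 in both controls and at 6.22 to 26.3 CPM in SCI mice, and they are cut where an annotated exon begins. Capitals mark the motif matches, which overlap no other motif searched:
Tlr9, chr9:106222348-106222597, plus strand, 250 bases: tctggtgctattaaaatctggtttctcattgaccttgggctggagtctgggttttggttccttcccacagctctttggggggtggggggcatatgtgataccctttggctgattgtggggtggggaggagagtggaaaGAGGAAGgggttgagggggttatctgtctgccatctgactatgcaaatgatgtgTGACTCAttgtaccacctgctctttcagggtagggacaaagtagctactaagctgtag
Tlr13, chrX:106143025-106143203, plus strand, 179 bases: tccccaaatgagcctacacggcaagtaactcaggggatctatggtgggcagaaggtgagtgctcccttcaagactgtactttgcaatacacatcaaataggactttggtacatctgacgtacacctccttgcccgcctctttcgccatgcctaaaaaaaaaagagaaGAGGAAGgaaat
Tlr1, chr5:64933564-64933808, minus strand, 245 bases: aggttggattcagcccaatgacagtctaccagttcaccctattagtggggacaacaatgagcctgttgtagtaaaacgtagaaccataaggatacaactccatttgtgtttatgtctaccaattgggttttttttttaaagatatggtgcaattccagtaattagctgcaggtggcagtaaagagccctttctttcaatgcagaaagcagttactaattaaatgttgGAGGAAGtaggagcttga
In Tlr9 the first capital run is the PU.1 core, 112 bases before the start, and the second the AP-1 motif, 58 bases before it. The core lies 83 bases before the start of Tlr13 and 23 bases before that of Tlr1. Tlr9 and Tlr13 were called higher in both comparisons and Tlr1 in neither. A match describes letters only and is neither a binding site nor a cause.

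Of 64 pathway genes listed by role, 58 were tested, and 19 were called higher and 1 lower with vehicle, 25 higher and 3 lower with atorvastatin. Their median log2 fold change was 1.33 and 1.41, and for 14 of them both controls were at 0. Those 14 passed the filter only through the SCI groups, so their calls are in part fixed by it. They made up 12 of the 19 higher calls with vehicle and 14 of the 25 with atorvastatin. Cd36, Irf8, Nfkb2, Irf5 and Tirap, below 1 TPM in both controls, also passed it only through those groups. Cd36 and Irf8 were called higher in both comparisons, Nfkb2 with atorvastatin only, and Irf5 and Tirap in neither. Of all genes tested, 29.4% and 38.9% were called in either direction, and no test compared the pathway genes with these shares or with the receptors. Without Uninjured Control replicate 1 the calls numbered 40 and 46, and without replicate 2 they numbered 32 and 36.

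**Figure D3:**
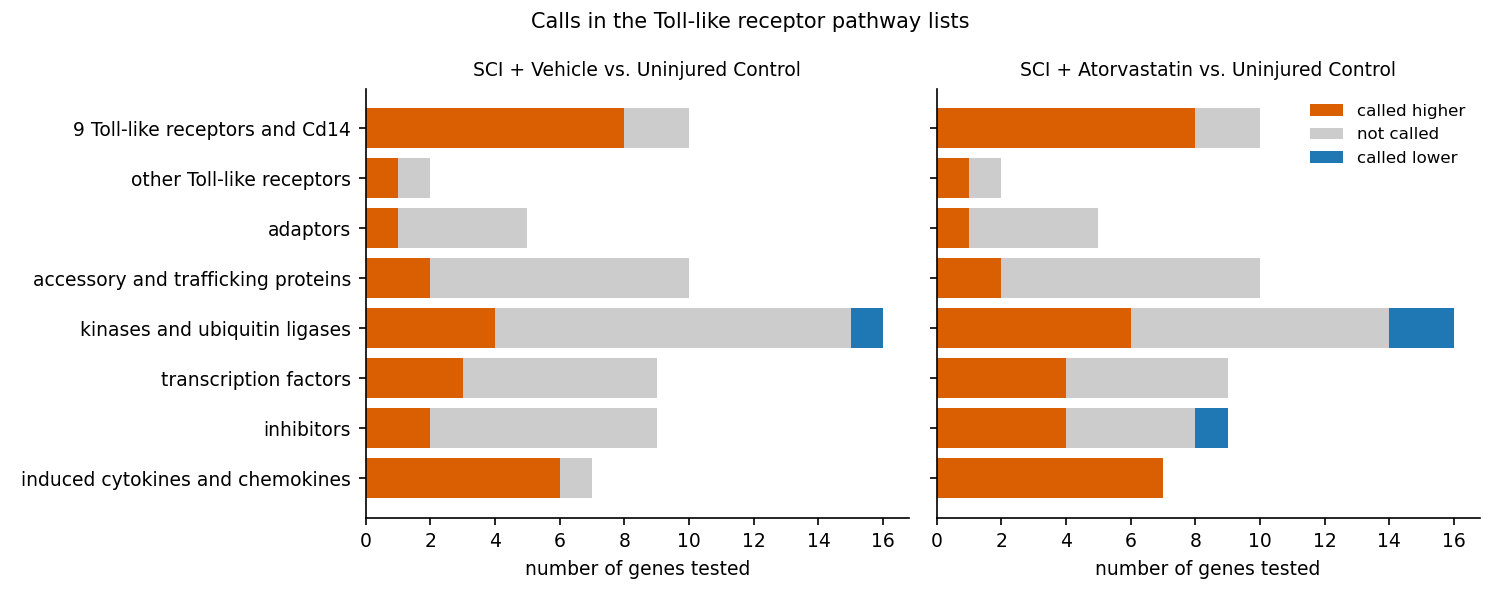
Number of genes tested in each role of the Toll-like receptor pathway (bars), split into those called higher, not called and called lower against the Uninjured Control group, with vehicle (left) and atorvastatin (right). The 10 receptor genes had 8 called higher in each, the adaptors 1 of 5, and the induced cytokines and chemokines 6 and then 7 of the 7 tested. Over all genes tested, 19.8% and 24.9% were called higher. The called receptor genes and these cytokines and chemokines passed the filter only through the SCI groups, so their calls are in part fixed by it.

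The shared adaptor was not called. Myd88, through which all of these receptors except Tlr3 can signal, had 300 and 507 counts in the controls and 241 to 593 in SCI mice, and its change on the log2 scale was -0.20 with vehicle and -0.056 with atorvastatin (edgeR adjusted p = 0.687 and 0.917). Of the 5 adaptors, Ticam2, the bridge between Tlr4 and Ticam1, was the only gene called, at least 32.9-fold and at least 45.8-fold higher with both controls at 0 (edgeR adjusted p = 3.11e-04 and 1.16e-04). Of 10 accessory and trafficking proteins, 2 were called higher. Unc93b1, the chaperone that carries the endosomal receptors out of the endoplasmic reticulum, measured 8.65 and 14.9 CPM in the controls and 79.9 to 116 CPM in SCI mice, with no overlap. Its log2 fold change was 3.03 ± 0.26 (SE) with vehicle and 3.16 ± 0.22 with atorvastatin (edgeR adjusted p = 5.11e-05 and 1.23e-05). Cd36, a scavenger receptor that presents lipids to Tlr2 with Tlr6, was called at 6.28 ± 1.19 and 6.74 ± 1.41, with 4 and 0 counts in the controls.

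Signalling kinases and ubiquitin ligases were mixed, with 4 of 16 called higher and 1 lower with vehicle, and 6 higher and 2 lower with atorvastatin. Irak4, the first kinase recruited to Myd88, was at 0 in both controls and at least 68.4-fold and at least 93.0-fold higher (edgeR adjusted p = 7.03e-05 and 1.77e-05). Btk, a kinase of myeloid and B cells, was likewise at 0 in both controls and at least 56.7-fold and at least 78.8-fold higher. Traf6, the ubiquitin ligase after Irak4, had a log2 fold change of 1.38 ± 0.36 (SE) and 1.45 ± 0.26. Traf3, a ligase of the interferon branch, fell by 0.51 ± 0.14 and 0.57 ± 0.12 on the log2 scale. Traf3 measured 144 and 152 CPM in the controls and 82.0 to 121 CPM in SCI mice, so these groups did not overlap, but the call with vehicle was lost with limma on log2(TPM + 1) and log2(TPM + 0.1) (adjusted p = 0.0962 and 0.0816) and with the replicate number as a block (-0.47, adjusted p = 0.0601).

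Transcription factors had 3 of 9 called higher with vehicle and 4 with atorvastatin. Rel, an NF-kB subunit of immune cells, was at 0 in both controls and at least 58.6-fold and at least 68.6-fold higher. Nfkb1 rose by 1.32 ± 0.21 and 1.48 ± 0.18 (log2, SE; edgeR adjusted p = 0.00118 and 1.54e-04), from 17.9 and 26.7 CPM to 45.4 to 67.8 CPM. Irf8, a factor of the myeloid lineage, had 0 and 227 counts in the controls and 471 to 1538 in SCI mice, with a log2 fold change of 3.31 ± 1.07 and 3.43 ± 1.05 (edgeR adjusted p = 0.0402 and 0.0254). As with Tlr13, the Irf8 call with vehicle was lost without any of the 7 vehicle mice.

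Inhibitors of the pathway had 2 of 9 called higher with vehicle, and 4 higher and 1 lower with atorvastatin. Tnfaip3, the enzyme that removes ubiquitin from Traf6 and ends NF-kB signalling, had a log2 fold change of 1.46 ± 0.46 and 1.91 ± 0.41 (SE; edgeR adjusted p = 0.0366 and 0.00430). The call with vehicle was lost when any 1 of vehicle replicates 1 to 6 was left out (adjusted p up to 0.0681), with a mean above 1 TPM required in every condition (adjusted p = 0.0501) and without Uninjured Control replicate 1, where the log2 fold change was 0.85 (adjusted p = 0.0521). Sigirr, a receptor of the same fold that dampens signalling, had 7 to 82 counts in SCI mice and 0 in both controls, at least 8.51-fold and at least 7.92-fold higher, and was not called with limma on log2(TPM + 1) or, with atorvastatin, on log2(TPM + 0.1). Of 11 listed cytokines and chemokines induced by these receptors, 4 (Il6, Il10, Il12b and Ifnb1) did not pass the filter on low values. The other 7 were at 0 in both controls and passed it only through the SCI groups, so that the 6 called higher with vehicle and 7 with atorvastatin are in part fixed by the filter and support nothing about the list. Ccl3, which attracts monocytes, was at least 49.5-fold and at least 56.2-fold higher (edgeR adjusted p = 1.95e-04 and 3.73e-05). Its neighbour Ccl4 was at least 19.8-fold and at least 19.5-fold higher, and Ccl2, the ligand of Ccr2, at least 19.6-fold and at least 23.2-fold.

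The receptors outside the group were scarce. Tlr12, which binds parasite profilin, had 3 to 60 counts in SCI mice and 0 in both controls and was called, at least 7.55-fold and at least 6.41-fold higher (edgeR adjusted p = 0.0149 and 0.0203), but not with limma on log2(TPM + 1). Tlr5, the flagellin receptor, had 85 and 0 counts in the controls and 5 to 77 in SCI mice and was not called. Tlr11 had at most 10 counts in any mouse.

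SCI + Atorvastatin vs. SCI + Vehicle asks whether delayed atorvastatin changed expression in the injured cord. A call here required the same size of change and an unadjusted p below 0.001, which 0.106% of all genes tested met, 0.0870% higher and 0.0186% lower with atorvastatin. None of the 10 genes was called. In edgeR 1 had an unadjusted p below 0.05, in DESeq2 none was called at the same limits, and no gene of all tested had an adjusted p below 0.05. Of the 10 fold changes 9 were positive and that of Tlr6 negative, with a median log2 fold change of 0.25 against -0.0014 over all genes tested. For every one of the 10 genes the ranges of both treatments overlapped.

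**Figure D4:**
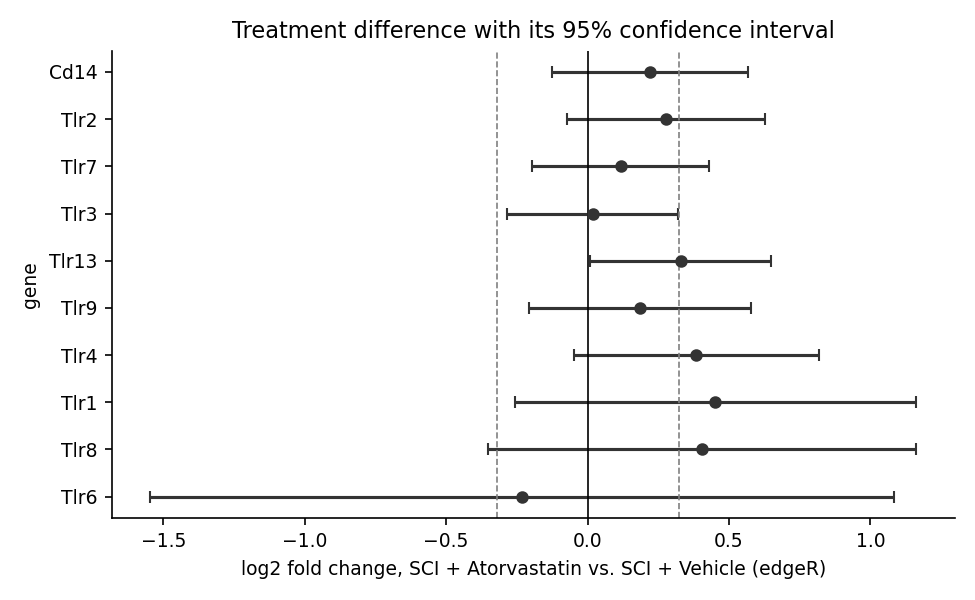
Log2 fold change of each gene in SCI + Atorvastatin vs. SCI + Vehicle (points) with its 95% confidence interval (bars) from edgeR; the solid line is 0 and the dashed lines are the limits of ±0.322. The interval of Tlr13 lies above 0 and those of the other 9 genes include 0.

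Tlr13 showed the smallest p of the group. Its replicates measured 17.1, 21.9, 18.8, 17.5, 22.2, 14.6 and 20.5 CPM with atorvastatin and 18.5, 19.8, 16.2, 9.96, 13.5, 14.8 and 12.7 CPM with vehicle. Of the 7 mice with atorvastatin 6 lay above the vehicle median, and the ranges overlapped from 14.6 to 19.8 CPM. The log2 fold change was 0.33 (95% confidence interval 0.0081 to 0.65), with an unadjusted p of 0.0450 and an edgeR adjusted p of 0.706. The difference therefore did not pass the limit.

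Tlr2 and Tlr4 had estimates of similar size with intervals that held 0. For Tlr2 the log2 fold change was 0.28 (95% confidence interval -0.072 to 0.63, edgeR adjusted p = 0.757), with 6 of 7 atorvastatin mice above the vehicle median. Its highest values, 27.6 and 30.6 CPM, were in SCI + Atorvastatin replicates 4 and 5 and its lowest, 13.1 CPM, in replicate 1 of the same group. For Tlr4 it was 0.39 (-0.049 to 0.82, edgeR adjusted p = 0.742), with 5 of 7 mice above the vehicle median. Both intervals allow a rise of more than 25% and a small fall.

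Cd14 differed by 0.22 (-0.12 to 0.57) on the log2 scale, Tlr9 by 0.19 (-0.21 to 0.58) and Tlr7 by 0.12 (-0.20 to 0.43). Tlr3 had the estimate nearest 0, at 0.018 (-0.29 to 0.32), an interval that lies within the limits of ±0.322 used for calls. The least abundant receptors were the least precise, with 0.45 (-0.26 to 1.16) for Tlr1, 0.41 (-0.35 to 1.16) for Tlr8 and -0.23 (-1.55 to 1.08) for Tlr6. An edgeR adjusted p between 0.706 and 0.998 for all 10 genes does not show that the treatments acted alike.

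Of the 58 pathway genes none was called between the treatments, and 6 had an unadjusted p below 0.05, compared with 7.03% of all genes tested. Their median log2 fold change was 0.10, with 44 positive and 14 negative. Tnfaip3 had the smallest p, at 18.5 to 23.5 CPM with atorvastatin against 11.9 to 19.2 CPM with vehicle and a log2 fold change of 0.43 (0.17 to 0.69, unadjusted p = 0.00275, edgeR adjusted p = 0.680). Irak4 differed by 0.44 (0.11 to 0.78), the adaptor Pik3ap1, which links receptors to PI3 kinase, by 0.34 (0.079 to 0.59), Lbp by 0.51 (0.0033 to 1.02) and Btk by 0.47 (0.00081 to 0.94). Tab3, a subunit of the Map3k7 complex, differed by -0.21 (-0.40 to -0.022), and its ranges of 25.3 to 27.8 CPM with atorvastatin and 28.4 to 34.2 CPM with vehicle did not overlap. Adjusted p for these 5 was 0.680 to 0.709 (edgeR). The myeloid markers had 8 of 8 positive estimates between the treatments with none called, at a median of 0.13.

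Mice that were high for a given receptor were not regularly high for others. Over the 14 SCI mice, with group means removed, the 45 pairs among the 10 genes had a median Pearson r of 0.19 (log2 CPM + 1), 33 positive and 12 negative. The highest were Tlr3 with Tlr6 (0.69, Spearman rho 0.57), Tlr1 with Tlr7 (0.64), Tlr2 with Tlr3 (0.62) and Tlr7 with Tlr13 (0.61). Tlr9 ran against Cd14 (-0.63, rho -0.60) and Tlr8 (-0.51). These points share libraries and depth, and no p is given. With the mean of the myeloid markers, r was 0.71 for Tlr7, 0.62 for Tlr1, 0.60 for Tlr13, 0.54 for Cd14, 0.040 for Tlr4 and -0.19 for Tlr9. Tlr4 and Tlr9 had the lowest r of the 10 genes. Both were at 0 in the controls, as were Tlr7 and Cd14.

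**Figure D5:**
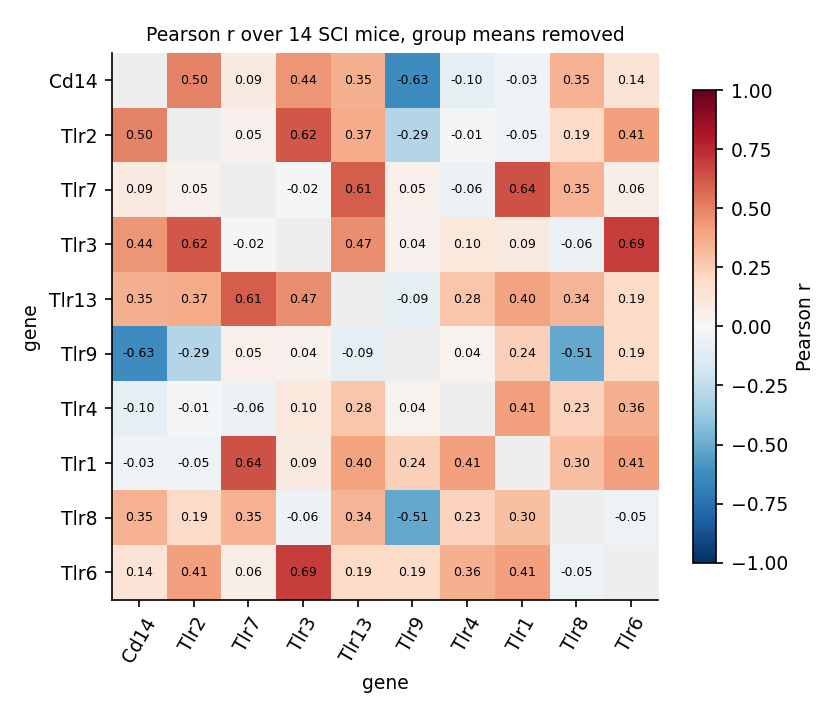
Pearson r between the 10 genes over 14 SCI mice after group means were removed (log2 CPM + 1), red positive and blue negative, with the value in each cell. Values run from -0.63 (Tlr9 with Cd14) to 0.69 (Tlr3 with Tlr6).

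The genes most like each receptor over these 14 mice, of 14000 with a mean of at least 50 counts are given by r. For Cd14 they were Cd52, a surface protein of leukocytes, at 0.89, Ints4 at 0.85 and C1qc, a complement subunit made by microglia, at 0.85. Tlr13 was nearest to Itgb1, Pmp22 and Mrps30 (0.91, 0.91 and 0.90) and Tlr7 to Pdia5, C1qtnf1 and Jag1 (0.90 each). Tlr2 was nearest to Usp38, Ltv1 and Dusp14 (0.85, 0.84 and 0.83), Tlr3 to Dazap2, Marc2 and S100a10 (0.88, 0.88 and 0.85), and Tlr4 to Adam9, 3425401B19Rik and Zfp628 (0.81, 0.80 and 0.79). For Tlr9 they were Slc30a6, Dusp15 and Arntl2 (0.85, 0.80 and 0.80), for Tlr1 Dmpk, Eln and Sesn1 (0.93, 0.92 and 0.92), for Tlr8 Lmo7 and Gm12942 (0.87 each), and for Tlr6 Cdo1, Tmem200a and Marc2 (0.84, 0.83 and 0.82). These were picked by the size of r among many genes and are a description only.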

How the data were processed

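Spinal cord RNA of 16 mice was sequenced after library preparation with a stranded total RNA kit for small inputs. Per the labels, the authors used FastQC 0.12.1, Trimmomatic 0.38, STAR 2.5.4b and RSEM 1.3.1 with mm10. The authors deposited TPM values and whole-number counts per gene symbol; the step that made the counts whole and the strand setting are not given in the sources used here. The members and gene lists were chosen with earlier results of these data known.

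Counts were tested with edgeR 4.0.16 (quasi-likelihood, TMM normalisation) in R 4.3.3, with each comparison fitted on its own 2 groups, for the 16091 genes whose condition mean exceeded 1 TPM in any of the 3 groups. Adjusted p-values are Benjamini-Hochberg values from edgeR over those genes. Called genes differed by more than 0.322 on the log2 scale, at an adjusted p below 0.05 against the Uninjured Control group and an unadjusted p below 0.001 between treatments. Genes at 0 in both controls are given as lower bounds against 3 counts per library (0.151 CPM), which hold for the libraries and not for the tissue. Replicates are separate mice, and 2 controls give little information on their spread. The alternatives were DESeq2 1.42.0, other normalisations, filters and thresholds, a fit of all groups, limma 3.58.1 on log2(TPM + 1) and log2(TPM + 0.1), voom with group weights, a replicate block and leaving out each mouse. The edgeR steps were tested on simulated data, with all libraries drawn from mean levels of the SCI mice at 1 common spread. Those data lacked the many zeros of the control libraries, so they cannot vouch for comparisons with the controls. Named pathway genes were, in each role, the called genes with the 3 largest log2 fold changes in each direction with vehicle against the Uninjured Control group, and those with an unadjusted p below 0.05 between treatments. For each member the 3 genes with the highest r over SCI mice were named, except 1 that is not reported here. Tlr5, Tlr11, Myd88 and Ly96, and single markers at 0, were named after their values were seen. Positions are from GENCODE M21 (GRCm38) and promoters from RefSeq (GRCm38.p6).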

Additional observations from a re-analysis of the deposited data

Results flagged for a closer look

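Cd14 in SCI + Atorvastatin replicate 3 lay apart from the other 6 mice of its group. It measured 24.1 CPM (486 counts), and the next mouse measured 17.5 CPM. The gap made up 0.589 of the group's range, which is above the 95% critical value of Dixon's test for 7 samples. Its TPM was 42.9. It was the only value that stood apart in 20 sets of 7 mice, and chance flags about 1 in 20 such sets.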

How the results depend on the processing

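Calls of the 10 genes against the Uninjured Control group depended on filters and on the weight given to 2 controls. The 8 called genes became 0 in both comparisons when the mean had to exceed 1 TPM in all 3 conditions (2 genes left to test), with at least 10 counts in every mouse (0 left), and with voom group weights. The same alternatives moved the 20 pathway calls with vehicle to 5, 6 and 0, and the 28 with atorvastatin to 9, 9 and 0. Over all genes they called 19.1%, 26.4% and 0.827% with vehicle, and 29.5%, 37.2% and 0.907% with atorvastatin. An adjusted p below 0.01 left 18 of the 28 pathway calls with atorvastatin, where 25.7% of all genes were called. Between treatments, an unadjusted p below 0.05 gave 1 of the 10 genes and 5 pathway genes, and 4.16% of all genes. Leaving out 1 mouse gave 7 to 10 genes called with vehicle, 8 to 10 with atorvastatin and 0 between treatments, and 18 to 40 and 22 to 46 pathway genes. Leaving out a control raised the share of all genes called from 29.4% to 47.7% and 48.5% with vehicle and from 38.9% to 60.3% and 61.1% with atorvastatin. Between treatments, 17 of all genes were called, against 37 with DESeq2, 10 with at least 10 counts in every mouse, 8 with voom group weights, 8 with the block and 1 with all groups in 1 fit. Under the replicate block, Tlr12 with atorvastatin and Traf3 with vehicle lost their calls (edgeR adjusted p = 0.0528 and 0.0601), and no other named gene did.

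Estimates that changed sign were mostly near 0. Tlr3 between treatments was -0.0249 with limma on log2(TPM + 1) and -0.0275 on log2(TPM + 0.1). Leaving out 1 mouse gave log2 fold changes from -0.31 to 9.35 for Tlr1 with vehicle, and for Tab3 from -0.16 to 1.33 with vehicle and -0.36 to 1.14 with atorvastatin, against uninjured cord. Between treatments the ranges were -0.046 to 0.091 for Tlr3, -0.062 to 0.14 for Traf6, -0.61 to 0.12 for Sigirr, -0.17 to 0.12 for Ccl4 and -0.53 to 0.071 for Tlr12. The cause was not tested. Over all named genes, comparisons and alternatives, 1609 estimates kept direction and call, 93 lost the call, 31 gained it and 26 changed sign.

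Replicate numbers did not pair the mice, since same-numbered mice of both SCI groups had r from -0.192 to 0.111 and 0 of 7 correlated best with their own number. With the replicate number as a block, 8 of the 10 genes were called in each comparison with uninjured cord and 0 between treatments, and 22, 26 and 0 pathway genes. Over all genes the block called 29.8% with vehicle, 33.6% with atorvastatin and 0.0497% between treatments.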
